A study of Homo sapiens with 79 samples.

Results

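The data described here are the 3 libraries of RNA recovered with an antibody to CBX3 phosphorylated at serine 83, set against the 3 libraries of input set 1. They were chosen by their sample titles, out of 79 libraries in the whole series. The labels tie no input set to a given pulldown, and set 1 was taken as the nearest of the 3 sets, a choice that the sample titles do not settle. All 9 input libraries, and sets 2 and 3 alone, served as further controls. The study surveyed RNA bound to chromatin-associated and RNA-binding proteins in K562, an established human leukemia cell line with erythroid features. Cells were lightly cross-linked with formaldehyde and sonicated, the protein was pulled down with its antibody, and the RNA that came with it was sequenced (fRIP-Seq). Input RNA came from the same kind of lysate without pulldown. Every library was from unmodified, untreated K562 cells. The groups also differed in depth. The libraries of total CBX3 fRIP (3) and SUZ12 fRIP (3) were used for direct comparison. A mock pulldown was not analysed here, so the measurements compare a pulldown with input or with another pulldown, and RNA held by beads cannot be told apart from RNA held by the antibody's target.

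CBX3, also called HP1γ, is a member of the heterochromatin protein 1 family. Its chromodomain reads methylated lysine 9 of histone H3, and its chromoshadow domain joins partner proteins. Unlike its relatives CBX5 (HP1α) and CBX1 (HP1β), it is also found over the bodies of transcribed genes, where it has been tied to elongation by RNA polymerase II and to splicing. Serine 83 lies in the hinge between the domains and is a target of protein kinase A, and the form phosphorylated there is known from euchromatin.

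The 3 phospho-CBX3 libraries held about 11000000, 12340000 and 16740000 fragments, as read from the steps of the FPKM values (fragments per kilobase of transcript, scaled to library size), and the input libraries 20180000 to 22550000. On log2(FPKM + 1) the Pearson correlation was 0.971 to 0.977 within phospho-CBX3, 0.984 to 0.989 within input and 0.958 to 0.967 between them. The replicates differed at the low end. Genes above 0 FPKM numbered 24251 and 25236 in replicates 1 and 3, against 29874 in replicate 2, 29721 to 30357 in input and 26378 to 27789 in total CBX3 fRIP. Of single-isoform genes, 4.79%, 9.857% and 4.988% lay at 1 fragment in replicates 1 to 3, and 8.575% to 9.105% in input. The part of this difference in the calls of low genes was not tested. Of 14422 genes listed at 0 in all 3 input libraries, replicate 2 held 103 at 1 FPKM or more, against 22 and 29 in replicates 1 and 3. Of those 103 genes, 98 were at 0 in the other pulldowns, 46 of them pseudogenes and 34 lncRNAs, and none of the 98 entered a test. The fetal globin HBG2, a marker of these cells, was at 155, 644 and 713 FPKM in phospho-CBX3 and at 178, 901 and 944 FPKM in input, so the libraries numbered 1 were low in both groups. Over 14 erythroid markers the summed level was 1030 to 2060 FPKM in phospho-CBX3 and 999.7 to 2575 FPKM in input, and no marker was called in either direction. Few markers of other cell types reached the level for testing: 2 of 10 lymphoid, 1 of 8 fibroblast, 1 of 8 hepatocyte and 1 of 8 neuronal markers were tested, and none was called. Their summed levels were 15.7 to 25.8 against 19.5 to 32.6 FPKM (lymphoid), 4.36 to 16.1 against 3.38 to 3.87 (fibroblast), 4.96 to 10.8 against 3.21 to 7.64 (hepatocyte) and 20.6 to 35.9 against 15.1 to 25.4 (neuronal). GAD1, an enzyme of GABA synthesis, held most of the neuronal sum at 18.7 to 34.3 FPKM in phospho-CBX3 and 13.8 to 23.6 FPKM in input. CD3D, of the T cell receptor complex, was at 10.02 to 21.4 against 13.5 to 24.1 FPKM, and the collagen COL1A2 at 2.16 to 11.4 against 1.85 to 2.25 FPKM. STMN2 (neuronal), LUM (fibroblast) and APOA1 (hepatocyte) were listed at 0 in all 6 libraries. The part of these markers in the results was not tested. With every library numbered 1 left out, 4 erythroid markers were called lower and 1 fibroblast marker higher.

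The mRNA of CBX3 itself (ENSG00000122565.14, chr7:26240782-26253227 on hg19) was at 145, 181 and 181 FPKM in phospho-CBX3 and at 136, 154 and 149 FPKM in input. The groups overlapped, with a log2 fold change of 0.20 ± 0.12 (SE) and an adjusted p of 0.26 in limma. With input set 2 alone as control the value was -0.20, so the sign depended on the input used.

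Genes were tested where 3 or more of the 6 libraries reached 1 FPKM. Of these 17304 genes, 311 (1.8%) were higher in phospho-CBX3 and 1103 (6.37%) were lower, at an adjusted p under 0.05 (limma, Benjamini-Hochberg) and over 2-fold. Fold changes are differences of log2(FPKM + 1), which understates the change of genes of low level. The median over all tested genes was -0.01, with quartiles of -0.42 and 0.32 and a median SE of 0.19. The classes of RNA split unevenly with input set 1. Of 11535 mRNAs, 233 (2.02%) were higher and 200 (1.73%) lower, while of 2747 lncRNAs 25 (0.910%) were higher and 309 (11.2%) lower, and of 2460 pseudogenes 41 (1.67%) were higher and 537 (21.8%) lower. Both the number of lower calls and this split depended on the control. mRNAs were 200 of the 1103 lower genes with set 1, 277 of 727 with all 9 inputs, 441 of 781 with set 2 and 428 of 728 with set 3. Against all 9 inputs 640 genes (3.7%) were higher and 727 (4.2%) lower, and of the original calls 273 of 311 higher but 482 of 1103 lower were called again. Called in the same direction with all 9 inputs and also without replicate 2 were 240 of the higher genes (182 mRNAs, 18 lncRNAs, 33 pseudogenes) and 442 of the lower genes (103 mRNAs, 86 lncRNAs, 229 pseudogenes). For a single gene the exact permutation test of 3 against 3 libraries cannot go below 0.1, a value that every gene with groups that did not overlap reached, 22.2% of tested genes upward and 23% downward.

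Among the 10 mRNAs with the largest enrichment, the smallest SE was that of RBM15, an RNA-binding adaptor of the complex that writes N6-methyladenosine. RBM15 (ENSG00000162775.10, chr1:110881128-110889303) was at 176, 172 and 169 FPKM in phospho-CBX3 and at 56.1, 50.7 and 52.1 FPKM in input. The phospho-CBX3 replicates were within a few percent of each other and every one of them lay far above every input. The log2 fold change was 1.68 ± 0.10 (adjusted p = 0.00017), and 1.94 against all 9 inputs. RBM15 was also above total CBX3 fRIP by 1.11 ± 0.12 (adjusted p = 0.0079, limma) and above SUZ12 fRIP by 1.09 (adjusted p = 0.0021), comparisons that share the phospho-CBX3 libraries. GPR98 encodes a very large adhesion receptor in a transcript averaging 53.3 exons. It was at 183, 267 and 223 FPKM against 60.5, 63.9 and 61.8 FPKM in input, again with no overlap and a log2 fold change of 1.82 ± 0.15, and it exceeded total CBX3 fRIP by 1.15 (adjusted p = 0.014), while its difference from SUZ12 fRIP was -0.46 (adjusted p = 0.10). DNAH8, an axonemal dynein heavy chain, was at 29.0, 22.1 and 15.01 FPKM against 6.13, 5.21 and 6.09 FPKM, with a log2 fold change of 1.71 ± 0.23. All of its phospho-CBX3 values were above all inputs although they ranged widely, and it was below SUZ12 fRIP by a log2 difference of -0.83 (adjusted p = 0.015).

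The other protein coding genes with the largest enrichment are less firmly placed. TIMM10B, a chaperone of protein import into mitochondria, led by fold change at 2.39 ± 0.49 (adjusted p = 0.012), yet its 22.7 FPKM in replicate 1 stood far above 5.03 and 6.17 FPKM in the other replicates, and input held 1.41, 0.662 and 0.764 FPKM. ZNF888, a KRAB zinc finger gene of chromosome 19, was at 13.3, 11.1 and 13.0 FPKM against 1.57, 1.87 and 1.34 FPKM, a log2 fold change of 2.38 ± 0.17 that fell short of the threshold against input set 3 (1.10, adjusted p = 0.13). POTEE and POTEF, ankyrin genes fused to actin, share 73.9% and 76.2% of their 31-base words (31 bases being the read length) with each other, so their reads cannot be assigned with confidence. POTEE was at 50.1, 42.9 and 32.7 FPKM against 9.89, 9.34 and 9.68 FPKM (1.99), and POTEF at 13.0, 10.5 and 8.62 FPKM against 2.78, 2.48 and 2.27 FPKM (1.72). Both stayed apart from input in each library. The golgin copies GOLGA8A (1.82) and GOLGA8B (1.72) likewise share 73.7% and 66.8% of their words. GOLGA8A was at 201, 122 and 129.98 FPKM against 39.8, 40.9 and 42.3 FPKM, and differed from total CBX3 fRIP by only -0.03 ± 0.25. RP11-438J1.1 (1.72) shares 96.5% of its words with TATDN2, whose own log2 fold change was 0.08.

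**Figure D1:**
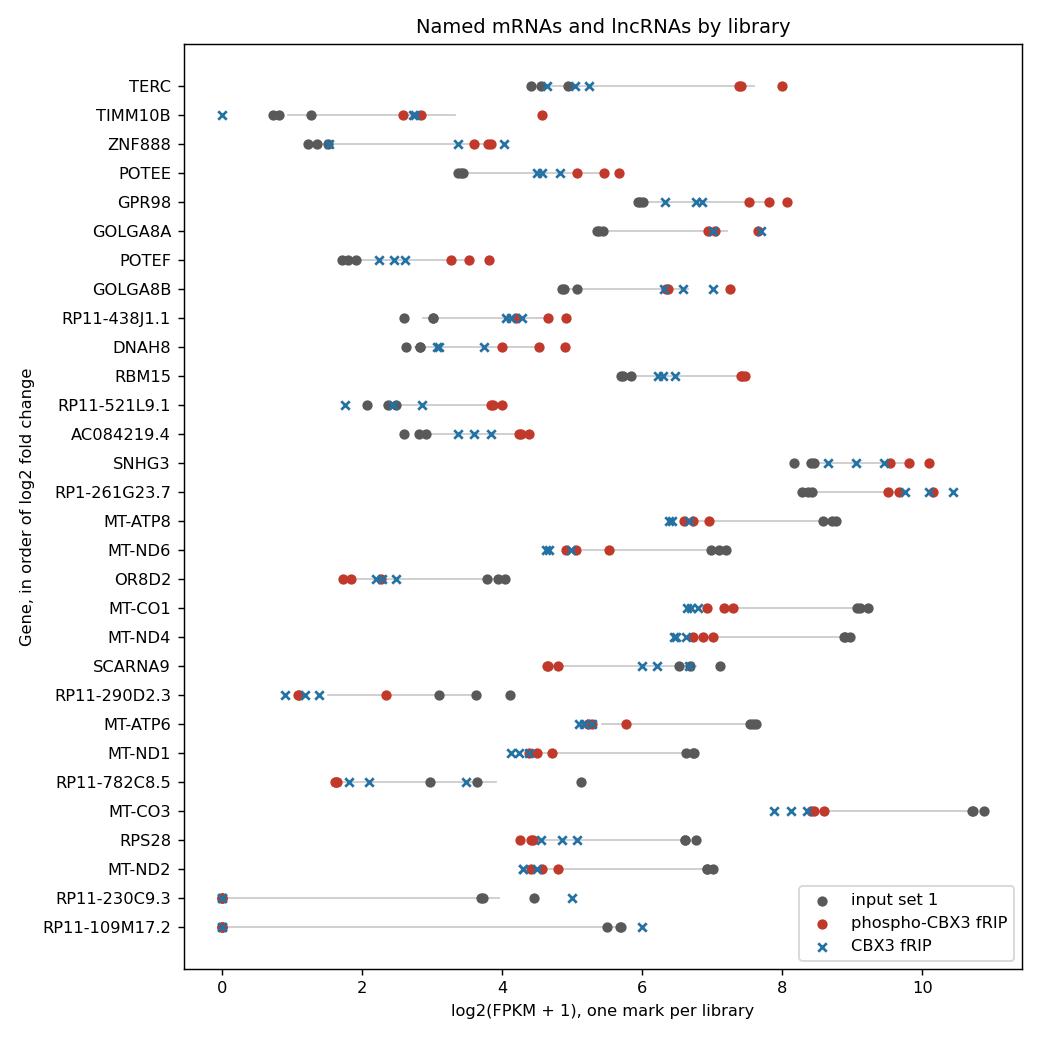
Level of each named mRNA and lncRNA as log2(FPKM + 1), one mark per library, for input set 1 (grey), phospho-CBX3 fRIP (red) and total CBX3 fRIP (blue crosses); grey lines join the means of input and phospho-CBX3. Red and grey marks do not overlap in any row, TERC lies near 8 in phospho-CBX3 and near 5 in input, and the MT genes lie about 2 units lower in both pulldowns.

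Among the gene lists, the lowest median was that of the mitochondrial genome. All 13 mitochondrially encoded mRNAs, which specify subunits of the respiratory chain and ATP synthase and never pass through the nucleus, were lower, where 1.73% of all mRNAs were. Their median log2 fold change was -1.93, and the same 13 were lower with every control and with any replicate left out. MT-CO3, a subunit of cytochrome c oxidase, was at 386, 338 and 351 FPKM in phospho-CBX3 and at 1889.8, 1685 and 1679.7 FPKM in input, a log2 fold change of -2.29 ± 0.13 (adjusted p = 0.00016). MT-ND2, a subunit of complex I, was at 22.8, 26.9 and 20.2 FPKM against 128, 120.5 and 121 FPKM (-2.36 ± 0.12). Pulldown and input were widely separated for both. MT-ND1 (-2.17), MT-ATP6 (-2.15), MT-ND4 (-2.05), MT-CO1 (-2.01), MT-ND6 (-1.93) and MT-ATP8 (-1.92) followed. These mRNAs share 21.2% to 66.7% of their 31-base words with nuclear copies, where reads can be placed instead. Of the 12 mitochondrial tRNAs and rRNAs tested 5 were lower, where 6.37% of all genes were. MT-TH was listed at 0 in every phospho-CBX3 library and at 1157, 1729 and 1713 FPKM in input set 1, so it entered the test through the input libraries alone. It was also listed at 0 in at least 1 of the 9 inputs and in 1 library each of total CBX3 and SUZ12 fRIP. The summed FPKM of the 13 mRNAs made up 0.298% ± 0.020 (SD, n = 3) of phospho-CBX3 and 1.12% ± 0.063 of input, with an exact permutation p of 0.1. In direct comparison with total CBX3 fRIP none of the 13 was called, and their median difference was 0.37 in favour of phospho-CBX3.

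The mRNAs of cytosolic ribosomal proteins had the next lowest median among the lists of mRNAs. Of 81 such mRNAs, which carry a terminal oligopyrimidine start and are translated together, 30 were lower and none higher, where 1.73% of all mRNAs were lower, 80 had a fold change below 0, and the median was -0.88. RPS28, of the small subunit, was at 20.8, 18.2 and 20.3 FPKM in phospho-CBX3 and at 108, 97.0 and 96.4 FPKM in input (-2.29 ± 0.11, adjusted p = 0.00012). RPL38, of the large subunit, was at 119.9, 197 and 204 FPKM against 609.5, 620.2 and 643 FPKM (-1.88 ± 0.20). Neither overlapped with input, although RPL38 was lower in replicate 1 than in the other replicates. RPSA alone was above 0, at 0.18 (adjusted p = 0.39). In direct comparison with total CBX3 fRIP none of the 81 was called, and their median difference was 0.15 in favour of phospho-CBX3. Against all 9 inputs 50 of the 81 were lower and against input set 2 this was 55, while the count was 25 with the libraries numbered 1 left out. Of all mRNAs 2.4% were lower against all 9 inputs, 3.82% against set 2 and 3.71% against set 3. The mRNAs of the list make up 5.44% ± 0.31 of FPKM in phospho-CBX3 and 8.91% ± 0.10 in input (exact permutation p = 0.1). Of 57 translation factors only EIF1, which helps to select start codons, was lower, at 141, 138 and 119 FPKM against 283, 332 and 332 FPKM (-1.25, but -0.80 with an adjusted p of 0.056 against input set 2), and the median of the list was -0.07. Of 82 nuclear-encoded respiratory chain mRNAs 5 were lower and none higher, with a median of -0.42. COX7C, a small subunit of cytochrome c oxidase, was at 69.3, 161 and 121 FPKM against 298, 343 and 339 FPKM (-1.55), and NDUFA3, an accessory subunit of complex I, followed at -1.49 (adjusted p = 0.015). NDUFA3 was not called without input replicate 1 (adjusted p = 0.061) or 3 (0.055), or without the libraries numbered 1 (0.058). This count depended strongly on the control: it was 43 of 82 against input set 2, 42 against input set 3 and 33 against all 9 inputs. Against total CBX3 fRIP none of the 82 respiratory chain mRNAs was called, with a median difference of 0.16. Of 38 proteasome subunits none was called (median 0.16). OR8D2, an olfactory receptor gene, was the remaining protein coding gene among the most depleted, at 2.60, 3.82 and 2.32 FPKM against 15.5, 14.5 and 12.8 FPKM (-1.98). It was under 2-fold lower against input set 2 (-0.99) and set 3 (-0.83).

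The ratio to input was higher in mRNAs with more exons. Over 11453 mRNAs, the Spearman correlation of log2 fRIP/input with the number of exons was 0.304 ± 0.015 (SD over the 3 phospho-CBX3 libraries), against 0.172 ± 0.030 for transcript length. After length was taken out, exon number kept 0.222 ± 0.0096, whereas length after exon number kept 0.0562 ± 0.026. With all 9 inputs these were 0.233 and 0.135, and on the most expressed isoform 0.179 and 0.0249. These are correlations across genes that share the same libraries, and genes are not independent replicates. The median log2 fold change was -0.07 in 1279 mRNAs of under 3 exons, -0.02 from 3 to under 6 exons, 0.15 from 6 to under 11, 0.30 from 11 to under 21, 0.50 from 21 to under 41 and 0.62 in the 33 mRNAs of 41 or more. Of those 33 mRNAs, 10 (30.3%) were called higher and none lower, and of the 395 before them 37 (9.37%) were higher, where 2.02% of all mRNAs were. By length the steps were uneven. mRNAs of under 500 bases had a median of -0.66, and 25.5% of these 106 mRNAs were lower, but from 2000 bases upward the median stayed between 0.17 and 0.19. The percent called higher still rose with length. It was 1.06% from 1000 to under 2000 bases, 2.24% to under 4000, 3.71% to under 8000 and 7.80% from 8000 bases. The mRNAs called higher had a median length of 3195 bases and 10.7 exons, those called lower 993 bases and 3.51 exons, and all tested mRNAs 2162 bases and 6.73 exons. Other mRNAs of the same length as the ribosomal protein mRNAs had a median of -0.09, against -0.88 for that list, and the 143 of them at 100 FPKM or more in input had -0.24. The relation with GC content differed between libraries, at 0.222 and 0.189 in replicates 1 and 3 and -0.0719 in replicate 2. For total CBX3 fRIP, against the same inputs, the values were 0.247 for exons and 0.323 for GC content, and for SUZ12 fRIP 0.551 and -0.234.

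**Figure D2:**
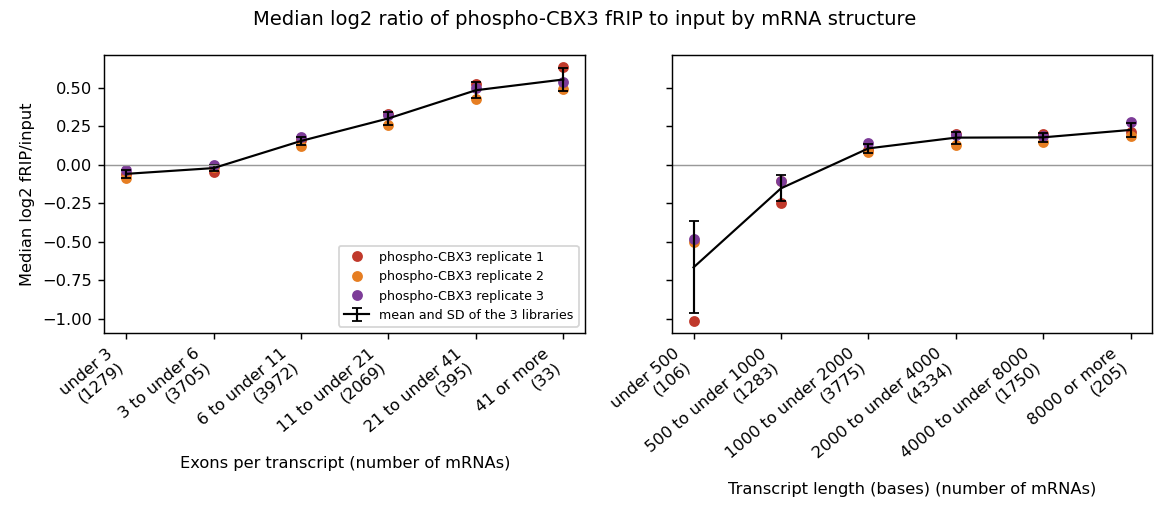
Median log2 ratio of phospho-CBX3 fRIP to input set 1 for mRNAs binned by exons per transcript (left) and by transcript length in bases (right), with the number of mRNAs under each bin; coloured points are the 3 libraries and the black line their mean with SD. The median climbs from -0.06 to 0.55 with exon number in all 3 libraries, and with length it levels off beyond 2000 bases.

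The noncoding RNA most enriched among the named lncRNAs was TERC, the RNA subunit of telomerase, which carries the template for telomere repeats. TERC (ENSG00000270141.2) is a single exon of 541 bases on the minus strand, chr3:169482308-169482848 on hg19. The template is shown because it is the part of the RNA that sets the telomere repeat. In the line below, taken from the GRCh37 genome with GENCODE coordinates (chr3:169482784-169482813, bases 36 to 65 of the RNA), the capitals mark the template, bases 46 to 56.
TERC template region: cattttttgtCTAACCCTAACtgagaaggg
The letters CTAACCCTAAC occur in 0.00711% of 541-base windows of annotated transcripts, and in 0.00522% on the other strand. No 31-base word of TERC occurs in another annotated gene. TERC was at 166, 169.6 and 254 FPKM in phospho-CBX3 and at 29.6, 20.2 and 22.6 FPKM in input, and the groups were far apart. The log2 fold change was 2.96 ± 0.20 (adjusted p = 0.00038). Over all 9 inputs TERC ranged from 20.2 to 107 FPKM, still below every phospho-CBX3 library, and the log2 fold change was 1.69 (adjusted p = 0.018). It was 1.16 against input set 2 and 0.95 against set 3 (adjusted p = 0.0060), the latter under 2-fold. In total CBX3 fRIP TERC was at 37.01, 23.98 and 31.81 FPKM, 2.62 ± 0.21 lower than in phospho-CBX3 (adjusted p = 0.0070, limma), and SUZ12 fRIP was lower by 3.42.

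Host transcripts of small nucleolar RNAs went in both directions. Of 17 such hosts 3 were higher and 1 lower, with a median of -0.00, where 0.910% of lncRNAs were higher and 11.2% lower. SNHG3 was at 746, 895 and 1091 FPKM in phospho-CBX3 and at 287, 341 and 349 FPKM in input (1.47 ± 0.17), but the change was 0.80 against input set 2 and 0.79 against set 3. SNHG17 was at 79.5, 102 and 137 FPKM against 35.7, 44.3 and 43.1 FPKM (1.32), and SNHG12 followed at 1.07. None of the 3 overlapped with input. SNHG6 was the host called lower (-1.03), but 54.96% of its words occur in MCMDC2, and without the libraries numbered 1 it was at -0.98. Of 13 snoRNAs and scaRNAs tested out of 30, SNORA71A was higher and SCARNA9 lower (median 0.43). SNORA71A, a guide of pseudouridylation, was at 492, 613 and 983 FPKM against 182, 231 and 152 FPKM (1.84). Its whole sequence lies within the much longer SNHG17, so its reads cannot be told apart from those of SNHG17 there. SCARNA9, a guide RNA of Cajal bodies, was at 24.3, 24.1 and 26.8 FPKM against 137, 91.4 and 101 FPKM, a log2 fold change of -2.07 ± 0.16, and its difference from total CBX3 fRIP was -1.59 (adjusted p = 0.0079). Its pulldown values were close together and all below input. Of 6 spliceosomal and Pol III RNAs tested only RMRP, the RNA of RNase MRP, was higher (1.06, but 0.84 against all 9 inputs, 0.60 against set 2 and 0.87 against set 3), with 3190.1, 3847 and 4366 FPKM against 1802, 1794 and 1824 FPKM, and the median was 0.21.

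Among other lncRNAs, RP11-521L9.1 (1.59), AC084219.4 (1.52) and RP1-261G23.7 (1.43) were higher, but 68.7%, 49.4% and 100% of their words occur in TANGO6, ZNF224 and VEGFA, and those mRNAs were higher too, at 1.11, 1.36 and 1.25. RP11-109M17.2 was listed at 0 in all 3 phospho-CBX3 libraries and at 44.2, 51.2 and 50.5 FPKM in input. RP11-230C9.3 was likewise listed at 0, with 21.01, 12.22 and 12.05 FPKM in input. Both entered the test through the input libraries alone, and each was also listed at 0 in at least 1 of the 9 inputs and in replicates 1 and 3 of total CBX3 fRIP. RP11-782C8.5 (-2.28) and RP11-290D2.3 (-2.10) completed the lower set. These last 4 fell short of the threshold against input set 2 or set 3. No member of 13 tested lncRNAs of known function was called (median -0.35). MALAT1, a resident of nuclear speckles, was at 2666, 3037 and 2608 FPKM against 5083, 5471 and 5547 FPKM (-0.96, adjusted p = 0.0075), and NEAT1, the scaffold of paraspeckles, had -0.72. Against all 9 inputs neither had an adjusted p under 0.05 (0.15 and 0.35). LINC00657, also known as NORAD, had 0.76 (adjusted p = 0.0024) and was above total CBX3 fRIP by 1.51 (adjusted p = 0.0070). One processed pseudogene of chromosome X, CTD-2328D6.1, singled out after its values were seen, was at 2412, 1186 and 696 FPKM against 3.20, 5.65 and 2.79 FPKM in input set 1, and up to 966 FPKM in another input library (log2 fold change 8.05, and 4.92 against all 9 inputs).

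**Figure D3:**
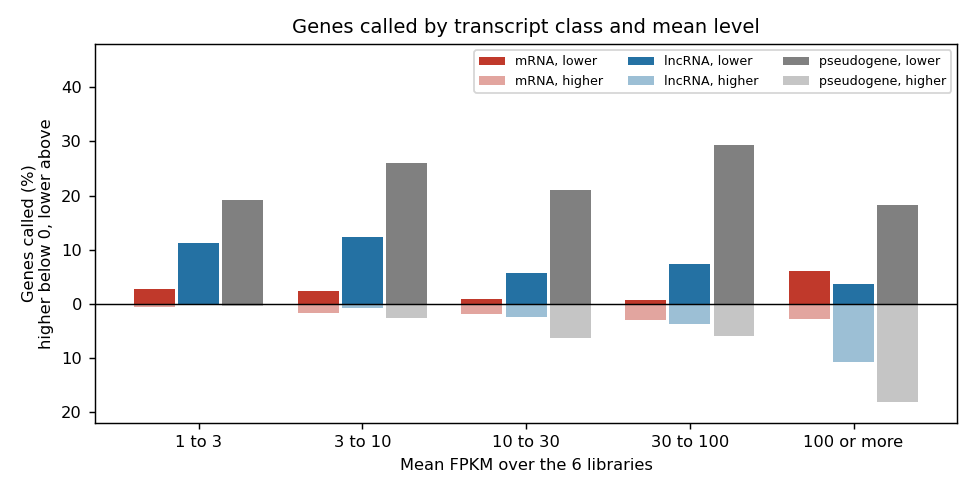
Percent of tested mRNAs (red), lncRNAs (blue) and pseudogenes (grey) called lower (bars above 0) or higher (pale bars below 0) in phospho-CBX3, against input set 1, by mean FPKM over the 6 libraries. Below 100 FPKM pseudogenes were called lower at 19.2% to 29.4% and lncRNAs at 5.61% to 12.3%, and the last bin holds 28 lncRNAs and 11 pseudogenes.

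In the plot of calls by mean level, mRNAs were called lower against input set 1 at 0.738% to 2.77% in the bins below 100 FPKM and at 6.14% above, where lncRNAs had 3.57%. A gene could enter the test through the 3 input libraries alone, and 68 of the 1103 lower genes were listed at 0 in every phospho-CBX3 library, against 1 higher gene listed at 0 in every input library. With a mean of at least 5 FPKM over the 6 libraries as the filter, 361 genes were lower, 1.41% of mRNAs, 8.98% of lncRNAs and 23.0% of pseudogenes. The gap was narrower with other controls. Lower against all 9 inputs were 2.4% of mRNAs, 3.97% of lncRNAs and 12.2% of pseudogenes. Against input set 2 these were 3.82%, 2.88% and 8.98%, and against set 3 they were 3.71%, 2.80% and 7.64%, so lncRNAs were then below mRNAs. Pseudogenes named for ribosomal proteins (39 of 170 lower, median -0.66) and all others (498 of 2290, median -0.54) had like values. As shares of summed FPKM, mRNAs took 86.2% ± 1.9 (SD, n = 3) of phospho-CBX3 and 77.6% ± 0.47 of input, lncRNAs 5.76% ± 0.21 and 6.61% ± 0.36, and small RNAs 0.990% ± 0.156 and 0.435% ± 0.017. Each of these differences reached the exact permutation p of 0.1. Without the 10 genes of highest mean FPKM the difference was 3.21 in place of 8.62 percentage points for mRNAs and 0.119 in place of 0.555 for small RNAs. Much of the small RNA share was RMRP, at 3190.1, 3847 and 4366 FPKM in phospho-CBX3 and 1802, 1794 and 1824 FPKM in input. The snoRNA SNORD56 was at 742.85 FPKM in phospho-CBX3 replicate 2 and at 0 in replicates 1 and 3. The pseudogene share did not reach a p of 0.1 (3.19% ± 0.46 and 3.47% ± 0.16, exact permutation p = 0.6). With all 9 inputs the exact permutation p was 0.0045 for mRNAs and for small RNAs but 0.44 for lncRNAs. That test treats the 9 inputs as exchangeable, although they come as 3 sets that differ, so it can overstate the evidence.

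The mRNAs of CBX3's own pathway showed no call. None of the 29 tested genes of HP1 and H3K9 methylation, out of 30, was higher or lower by the rule of the calls. Their median was 0.37, and 11 had an adjusted p under 0.05 with a value above 0, as had 16.2% of all mRNAs. CHAF1A, the large subunit of the chromatin assembly factor that binds HP1, was at 103, 71.3 and 92.7 FPKM against 46.2, 47.1 and 48.1 FPKM (0.89, adjusted p = 0.0060). ATRX, a remodeler that reads H3K9 methylation, had 0.86, the methyl-CpG protein MBD1 had 0.80, and MPHOSPH8, of the HUSH silencing complex, had 0.78. The list's other genes with adjusted p under 0.05 were DNMT3B, KDM4C, KDM4B, KDM4A, EHMT1, ATF7IP and SETDB1, at 0.39 to 0.70. CBX5 was the member with such a p below 0, at 41.2, 44.1 and 42.3 FPKM against 58.0, 61.8 and 63.9 FPKM (-0.52, adjusted p = 0.010). Neither of these groups of values overlapped. CBX1 had 0.21 (adjusted p = 0.18). Against all 9 inputs 2 members were called higher, where 4.19% of all mRNAs were. Of 13 tested PKA subunits and anchoring proteins none was called (median 0.44). AKAP8L had 0.97 and AKAP8, a nuclear anchoring protein, 0.73, while PRKACA, the catalytic subunit, had -0.52 (adjusted p = 0.047). Of 33 Pol II and elongation genes none was called (median 0.12), with CDK12, an elongation kinase, at 0.80 and the small subunit POLR2L at -0.88.

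Among the other lists, the centrosomal and mitotic genes held the most members called higher beside the zinc fingers. Of 74 CEP, kinesin and CENP genes 6 were higher and none lower, with a median of 0.39. CEP152, a scaffold of centriole duplication, was at 82.8, 93.1 and 93.9 FPKM against 33.8, 32.1 and 30.4 FPKM (1.46 ± 0.11), and the kinesin KIF13B had 1.36. Against all 9 inputs 12 were higher, where 4.19% of all mRNAs were. Of 194 zinc finger mRNAs of chromosome 19 (250 listed), 10 were higher and 1 lower, where 2.02% and 1.73% of mRNAs were, and the median of 0.18 lay near the 0.11 of all mRNAs. ZNF224 had 1.36 with 44.4% of its words in other genes. ZNF93, at 9.66, 7.75 and 5.06 FPKM against 20.6, 14.4 and 13.9 FPKM, had -1.04, and -0.48 against all 9 inputs (adjusted p = 0.20). In the core spliceosome 2 of 48 were higher (median 0.07), the pre-mRNA kinase PRPF4B (1.17) and PRPF39 (1.02, but 0.96 against all 9 inputs, 0.87 against set 2 and 0.99 against set 3). No SR protein or CLK kinase out of 18 was called (median 0.35), nor any of 28 hnRNPs (0.17) or 12 listed golgins (0.56). SRSF11 came closest among the SR proteins at 0.98, and the poly(C)-binding PCBP2 had -0.90. Of 15 tested immediate early mRNAs JUN was higher, at 22.7, 17.5 and 18.4 FPKM against 4.67, 9.35 and 9.20 FPKM (1.28). Its lowest input was that of replicate 1, and without the libraries numbered 1 the value was 0.88. Against input sets 2 and 3 it was 0.89 and 0.90. The median of that list was 0.24. No replication-dependent histone mRNA out of 32 was called (median -0.06), although 20 were lower against input set 2, 26 against input set 3 and 7 against all 9, where 3.82%, 3.71% and 2.4% of all mRNAs were.

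**Figure D4:**
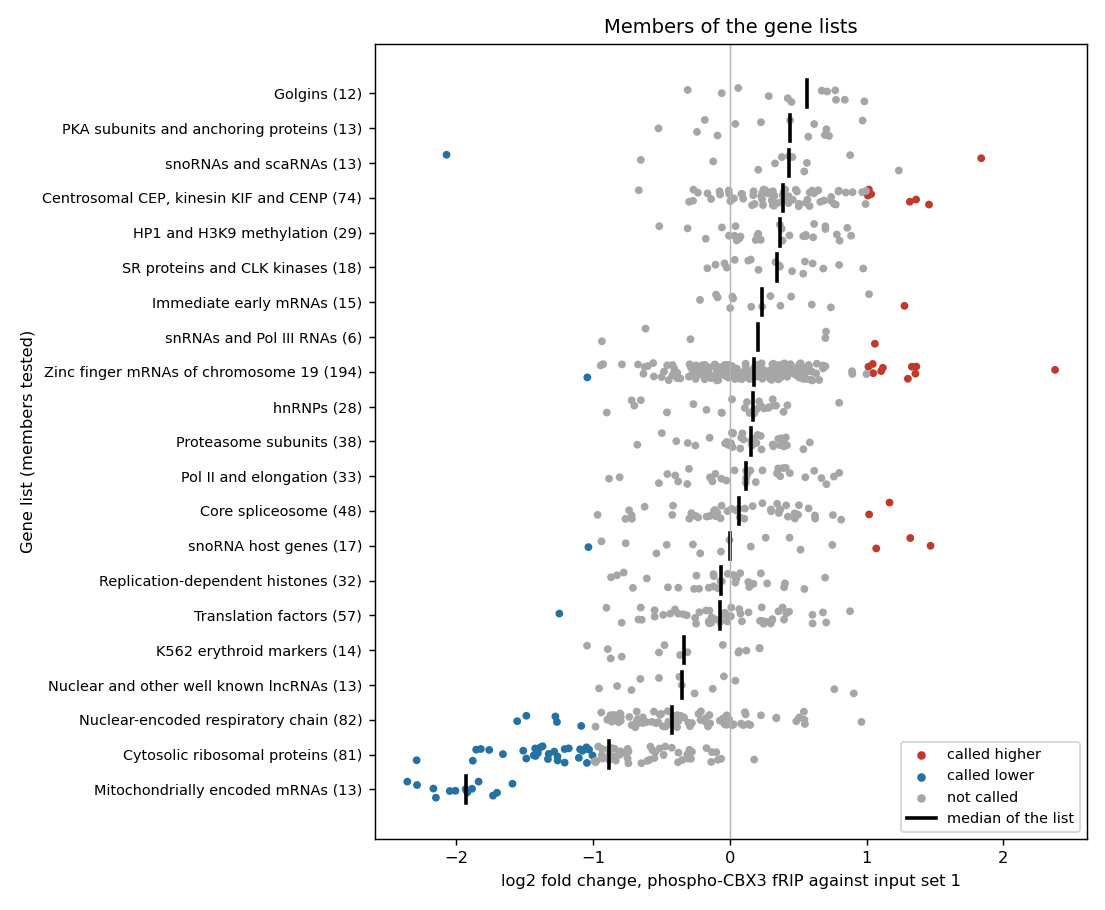
log2 fold change of phospho-CBX3 fRIP against input set 1 for the tested members of 21 gene lists, ordered by median (black bar); red points were called higher, blue lower and grey not called. All 13 mitochondrial mRNAs and 30 of 81 ribosomal protein mRNAs are blue, while the golgin, PKA, centrosomal and HP1 lists sit to the right of 0.

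Isoforms were compared in the same way, with the limit that FPKM of isoforms sharing most exons rests on how reads were divided among them. Of 53568 isoforms 2417 (4.51%) were higher and 1698 (3.17%) lower, and 31 genes held isoforms called both ways. The counts were 2062 and 2108 when centred on the median, 1590 and 755 with the replicate number as a block and 899 and 575 without a filter, and 3772 were higher with all 9 inputs. RBM39, a U2AF-related splicing factor, held 2 of the 10 isoforms named by the rule. The gene as a whole was at 498, 467 and 493 FPKM against 259.9, 278 and 269 FPKM in input (0.85 ± 0.10). Its isoform ENST00000444878, annotated to undergo nonsense-mediated decay, was at 41.1, 28.6 and 29.6 FPKM in phospho-CBX3 and at most 0.413 FPKM in input set 1 (4.91 ± 0.24, adjusted p = 0.00078), and at most 2.47 FPKM in any of the 9 inputs. It entered the test through the phospho-CBX3 libraries alone, the group where it was high. In total CBX3 fRIP it was at 30.6 ± 0.585 FPKM. The decay isoforms ENST00000425184 (2.37) and ENST00000490484 (1.36) were higher as well, the latter at 109, 70.5 and 80.2 FPKM against 33.6, 39.2 and 25.9 FPKM. The coding isoform ENST00000253363 was at 37.2, 52.2 and 42.7 FPKM and under 0.02 FPKM in input set 1, but up to 17.0 FPKM in other inputs (5.46, and 3.59 against all 9, adjusted p = 0.010), and at 0.0014 FPKM in total CBX3 fRIP. This coding isoform likewise entered the test through the phospho-CBX3 libraries alone. All 3 pulldowns were above all 9 inputs for each of the 4 isoforms.

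Decay isoforms of RBM39 contain exons that overlap no exon of its coding isoforms. The upstream one has 73 bases (chr20:34328447-34328519, minus strand) and occurs in 8 isoforms, and the downstream one has 156 bases (chr20:34301624-34301779) in ENST00000490484. The exon junctions are shown because they are what sets the isoforms apart. Each line holds the 15 bases on either side of a junction from the GRCh37 genome with GENCODE exon coordinates, with the extra exon in capitals.
RBM39 into the upstream extra exon: gctccttacaagaagACTTGCCTAACGATA
RBM39 out of the upstream extra exon: ACTGTCAATCATAAGgatgagaacaagttg
RBM39 skipping the upstream extra exon: gctccttacaagaaggatgagaacaagttg
RBM39 into the downstream extra exon: caagacttgcagaggGGTCTGGCTCTGTTG
RBM39 out of the downstream extra exon: TGGCTAATTTCTGTGgtacaggtttgcaga
RBM39 skipping the downstream extra exon: caagacttgcagagggtacaggtttgcaga
Isoforms with the upstream exon took 20.4%, 20.8% and 22.5% of RBM39 FPKM in phospho-CBX3 and 11.6%, 17.0% and 16.5% in input. The groups did not overlap (21.23% ± 1.14 and 15.01% ± 2.96, SD, n = 3, exact permutation p = 0.1), nor did the 9 inputs, at 10.5% to 17.6% (exact permutation p = 0.0045, with the 9 taken as exchangeable). Total CBX3 fRIP was at 20.6% ± 1.4. The isoform with the downstream exon took 21.8%, 15.1% and 16.3% against 12.9%, 14.1% and 9.61%, and over all 9 inputs, up to 18.8%, the groups overlapped (exact permutation p = 0.073).

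**Figure D5:**
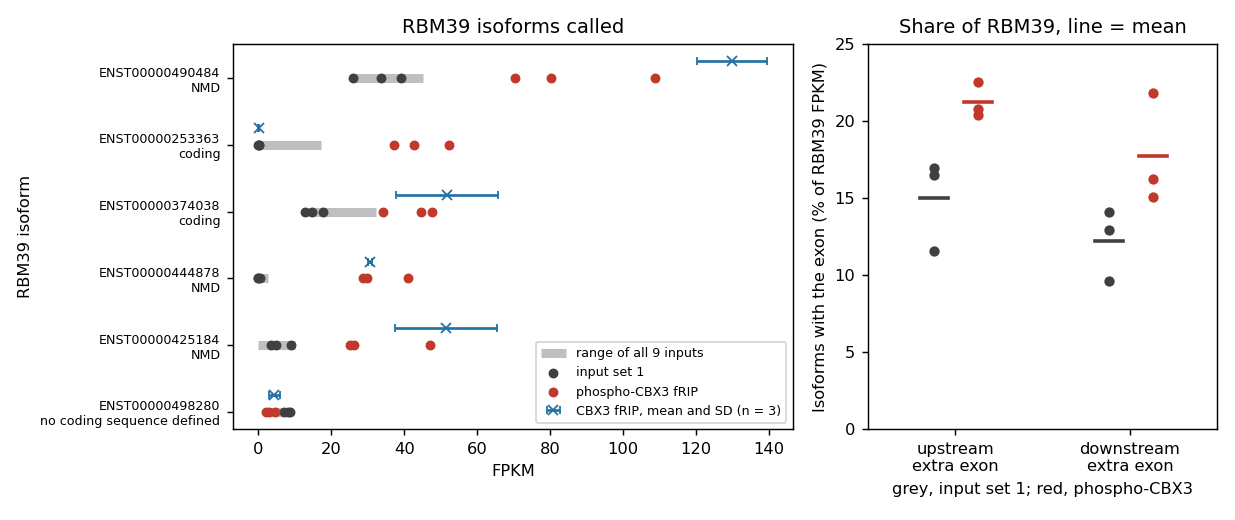
Left, FPKM of the 6 RBM39 isoforms called in phospho-CBX3 (red points, one per library), with input set 1 (dark points), the range of all 9 inputs (grey bars) and total CBX3 fRIP (blue, mean and SD); right, percent of RBM39 FPKM in isoforms with the upstream or downstream extra exon, lines showing means. In the left panel 5 isoforms lie above the range of the 9 inputs and ENST00000498280 lies low in both groups.

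Decay isoforms as a class took more of the FPKM in phospho-CBX3 than in input. Of 3536 such isoforms 302 (8.54%) were higher and 48 lower, beside 1201 (5.09%) and 482 of 23601 coding isoforms, where 4.51% of all isoforms were higher, and the difference between these percentages was not tested. The share was 8.92% for the 1132 decay isoforms with an extra exon of the kind found in RBM39 and 8.36% for the 2404 others. Their summed FPKM was 6.73% ± 0.13 (SD, n = 3) of that of mRNA genes in phospho-CBX3, 5.64% ± 0.07 in input and 6.69% ± 0.07 in total CBX3 fRIP. The exact permutation p was 0.1 for input set 1 and 0.0045 for all 9 inputs, taken as exchangeable although they come as sets. Of 19 tested decay isoforms of SR protein and CLK kinase genes 6 were higher, 4 of them also against all 9 inputs. Of these, SRSF6 isoform ENST00000483871 was at 18.6, 21.3 and 24.7 FPKM against 9.58, 7.45 and 8.36 FPKM (1.25), and CLK1 isoform ENST00000432425 was at 27.7, 30.7 and 18.9 FPKM against 5.35, 6.77 and 8.04 FPKM (1.78), both picked after their values were seen. Isoforms that retain an intron took 13.8% ± 0.83 in phospho-CBX3 and 13.2% ± 0.67 in input set 1 (exact permutation p = 0.3), but 10.6% ± 1.9 over all 9 inputs (exact permutation p = 0.014), and 23.6% ± 1.0 in total CBX3 fRIP. Over 4868 genes the median share of such isoforms was 21.8% ± 0.81 in phospho-CBX3, 25.0% ± 0.94 in input set 1 and 35.6% ± 1.2 in total CBX3 fRIP. The 9 inputs ranged from 17.0% to 26.1%, with a middle value of 19.04%, and overlapped with phospho-CBX3 (exact permutation p = 0.56).

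Elsewhere, isoforms of a single gene moved apart. In RPL32, a ribosomal protein gene, ENST00000435983 was at 3.12, 1.72 and 0.988 FPKM in phospho-CBX3 and at 75.4, 72.9 and 71.2 FPKM in input (-4.72 ± 0.26, adjusted p = 0.0012), while ENST00000396953 was at 43.8, 54.8 and 97.0 FPKM against 16.6, 20.6 and 21.6 FPKM (1.61). Both isoforms were called against all 9 inputs as well. OGT, which attaches N-acetylglucosamine to nuclear proteins, held ENST00000373701 at 288, 239 and 142 FPKM against 21.4, 12.6 and 12.7 FPKM (3.74, and 5.41 against all 9 inputs), with its gene at 0.77. STXBP5, a syntaxin-binding protein, held ENST00000367480 at 34.4, 26.8 and 35.3 FPKM against at most 2.59 FPKM (4.23). SEC13 isoform ENST00000337354 was near 0 in every pulldown and at 11.9, 18.1 and 15.05 FPKM in input (-3.98), so it entered the test through the input libraries alone. RFWD2 isoform ENST00000367666 (-1.81) and PAICS isoform ENST00000399688 (-2.83) were also lower. The lower HNRNPK isoform ENST00000351839 (-3.72) and the higher TRA2B isoform ENST00000456380 (4.97) were not called against all 9 inputs (adjusted p = 0.44 and 0.30), in which the TRA2B isoform reached 30.0 FPKM. That TRA2B isoform was near 0 in all of input set 1 and entered the test through the pulldowns alone.

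The direct comparison with total CBX3 fRIP sets RNA recovered with the antibody to phosphorylated CBX3 beside RNA recovered with another CBX3 antibody. A difference between antibodies or in recovery cannot be told apart from one of phosphorylation, and total CBX3 may include the phosphorylated form. The comparison shares no input library. Of 16765 genes 72 (0.429%) were higher in phospho-CBX3 and 541 (3.23%) lower, with a median of -0.12. Centred on that median, 109 were higher and 321 lower, and without phospho-CBX3 replicate 2 the counts were 39 and 253. TERC, RBM15, GPR98, DNAH8, POTEF, RP11-521L9.1, LINC00657, SNORA71A and SNHG17, described above against input, were among the genes higher than in total CBX3 fRIP. Among the lower genes, named after their values were seen, the immediate early factor FOS was at 6.55, 11.7 and 6.71 FPKM against 53.9, 19.1 and 30.6 FPKM (-1.85, adjusted p = 0.021), and CLK2, a kinase of SR proteins, had -1.49 (adjusted p = 0.0079). FOS did not overlap between the pulldowns, and its difference from input was 1.02 (adjusted p = 0.145). Against SUZ12 fRIP, of the Polycomb complex that methylates lysine 27 of histone H3, 994 of 16583 genes (5.99%) were higher in phospho-CBX3 and 2642 (15.9%) lower. The median of the centrosomal and kinesin list was -0.83 there, and that of the ribosomal proteins 0.69.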

How the data were processed

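The authors aligned 31-base paired-end reads of ribosomal-RNA-depleted libraries to hg19 with TopHat and quantified GENCODE 18 genes and isoforms with Cuffdiff 2 (per the labels also CASAVA 1.4 and Cuffnorm); the deposited values are FPKM per gene and isoform for each library. Whether the counting used strand is not given in the sources used here, so overlapping and antisense genes cannot be told apart. Replicates were biological, from separate lysates.

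Values were tested as log2(FPKM + 1) with limma 3.58.1 (R 4.3.3, intensity trend, no covariate) over the 3 phospho-CBX3 and 3 input set 1 libraries, for features that reached 1 FPKM in 3 or more of them. Calls needed an adjusted p (Benjamini-Hochberg) under 0.05 and a change over 2-fold. Shares were compared by two-sided exact permutation tests. The fits were tested on simulated data. Depth, given under an assumed 150-base fragment, came from the FPKM steps of single-isoform genes (within 0.15 of a whole fragment for 90.9% to 92.4% of low values); it sets counting precision only. Exon number, length and GC content are means over isoforms weighted by input FPKM, from GENCODE 44 on GRCh37 (46055 of 48453 genes matched by identifier, 373 by symbol, 2025 not), as are isoform classes (172143 of 185661 matched).

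The named genes are the 10 mRNAs and 5 lncRNAs with the largest and the smallest fold change, among called genes with groups that did not overlap and a mean of at least 5 FPKM, 2 called members each way of 25 gene lists, and 5 isoforms each way in genes with isoforms called both ways. Libraries, members and lists were chosen with earlier results of these data known. Alternatives covered the pseudocount, filter, centring, control set, replicates left out and a replicate block; leaving out the libraries numbered 1, and binning by the mean of both groups, were added after seeing the data. Same-numbered libraries deviated together weakly (correlations 0.178, 0.0878 and 0.0327), so the numbers were not taken to pair them. Python 3.11.15, pandas 2.3.3, numpy 2.4.6, scipy 1.17.1 and matplotlib 3.10.9 were used.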

Additional observations from a re-analysis of the deposited data

How the results depend on the processing

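Genes called numbered 640 higher and 727 lower with all 9 inputs, 916 and 781 with input set 2, and 910 and 728 with input set 3, so that 46.8%, 54.0% and 55.6% of calls were higher, against 21.99% with set 1. A mean of at least 5 FPKM left 361 lower (42.4% of calls higher). With 1 library left out the counts were 268 to 399 higher and 690 to 1228 lower, falling to 690 without input replicate 2 and 725 without input replicate 3. For isoforms no filter gave 899 and 575, and all 9 inputs gave 3772 higher, with 1948 to 2282 and 1684 to 1838 when a pulldown was left out. Against total CBX3 fRIP no filter gave 31 and 185, centring 109 and 321, and leaving out a library 39 to 79 and 253 to 721, the lowest without phospho-CBX3 replicate 2. Whether depth, about 11000000 to 16740000 fragments in phospho-CBX3, limits the calls of low genes was not tested, nor was the cause of these shifts.

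With the replicate number as a block the counts were 321 and 1156 for genes, 1590 and 755 for isoforms, 68 and 473 against total CBX3 fRIP, and 1015 and 2694 against SUZ12 fRIP; the numbers are not known to pair the libraries.

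CBX3 reversed to -0.0061 with all 9 inputs, -0.196 with set 2 and -0.0252 with set 3. Of 45 named genes called, 42 were still called with all 9 inputs, 35 with set 2, 35 with set 3, 42 without a filter, 44 in the fit of all 79 libraries, 41 to 45 with 1 library left out, 40 without the libraries numbered 1, and 45 under the block, centring, both other pseudocounts and a mean of 5 FPKM. The Spearman value for exons was 0.341 with all 9 inputs and 0.272 on the most expressed isoform, that for length 0.256 with all 9 inputs, that for length after exons 0.135 and 0.0249 in the same settings, and that for exons after length 0.211 (pseudocount 0.1), 0.233, 0.2096 (mean of 5 FPKM) and 0.179. The near-zero value for input FPKM reversed to -0.0096 (pseudocount 0.1), -0.163 (all 9 inputs) and -0.0973 (mean of 5 FPKM), and ranged from -0.0225 to 0.0605 with a library left out. With all 9 inputs the difference in share, phospho-CBX3 minus input in percentage points, was 6.51 for mRNAs, -0.279 for lncRNAs, 0.181 for pseudogenes (reversed), -4.46 for ribosomal protein mRNAs, 3.12 for retained introns and -5.40 for coding isoforms. Without the 10 genes of highest mean FPKM it was 3.21 for mRNAs, 0.119 for small RNAs, -0.940 for mitochondrial mRNAs and -4.29 for ribosomal protein mRNAs.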
